A study of Mus musculus with 18 samples.

Results

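Gdf15, Fgf21 and Adm2 encode 3 small secreted proteins that cells release under stress, and they are examined here in the mouse lens. The 3 genes are members of a set of 40800 Ensembl genes in the count table, found by their symbols. They were chosen by their measured level in homozygous *Cryaa*-R49C lenses, so their difference between those lenses and the others is given as a description with no test. RNA of whole lenses, several combined per library, was sequenced in 18 libraries from C57BL/6J mice, with 3 libraries in each of 6 groups. At 2 days of age the groups were WT lenses, heterozygous lenses (*Cryaa*-R49C-het) and homozygous lenses (*Cryaa*-R49C-homo) of a knock-in line, in which the αA-crystallin gene carries the mutation R49C. At 14 days of age the same 3 genotypes came from a second knock-in line, with R120G in the αB-crystallin gene (*Cryab*-R120G-het, *Cryab*-R120G-homo). Both crystallins are small heat shock proteins that keep other lens proteins soluble, and these mutations cause inherited cataract. Line and age cannot be told apart, because each line was sampled at 1 age.

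Gdf15 is a distant member of the TGF-β family that circulates and acts through the receptor Gfral, with Ret as its signalling partner, in the hindbrain, where it reduces food intake. Fgf21 is an endocrine fibroblast growth factor best known from the fasting liver, and it signals through Fgf receptors together with the co-receptor β-Klotho (Klb). Adm2, also called intermedin, belongs to the calcitonin and adrenomedullin peptide family and signals through Calcrl paired with a Ramp protein. All 3 genes are known targets of ATF4 or CHOP, transcription factors of the integrated stress response, in which phosphorylation of eIF2α slows translation while ATF4 is made. Gdf15 is also a p53 target, and Fgf21 is a target of PPARα in liver.

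Gdf15 (ENSMUSG00000038508) lies on the minus strand at chr8:70629393-70632456 of GRCm38, Fgf21 (ENSMUSG00000030827) on the minus strand at chr7:45613886-45615490, and Adm2 (ENSMUSG00000054136) on the plus strand at chr15:89322720-89324731. All 3 are protein-coding, no other annotated gene overlaps them, and their exons cover 1852, 951 and 1298 bases. The promoter sequences are shown because the 3 genes share regulators. Each is the 250 bases before the RefSeq start in GRCm38.p6, 5′ to 3′ on the strand of the gene. Capitals mark the match to the core of the element that CHOP and ATF4 bind together (CARE, TGATGNAA, searched on both strands).
Gdf15, chr8:70632457-70632706, minus strand: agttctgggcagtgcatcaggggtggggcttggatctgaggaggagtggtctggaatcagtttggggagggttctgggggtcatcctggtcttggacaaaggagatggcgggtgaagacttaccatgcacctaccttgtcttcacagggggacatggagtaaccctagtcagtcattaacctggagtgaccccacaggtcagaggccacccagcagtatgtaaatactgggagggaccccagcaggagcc
Fgf21, chr7:45615491-45615740, minus strand: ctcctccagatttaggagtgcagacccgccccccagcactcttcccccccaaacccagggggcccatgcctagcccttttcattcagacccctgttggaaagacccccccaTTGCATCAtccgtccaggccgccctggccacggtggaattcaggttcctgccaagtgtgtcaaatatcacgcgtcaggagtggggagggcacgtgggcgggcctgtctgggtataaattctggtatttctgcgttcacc
Adm2, chr15:89322470-89322719, plus strand: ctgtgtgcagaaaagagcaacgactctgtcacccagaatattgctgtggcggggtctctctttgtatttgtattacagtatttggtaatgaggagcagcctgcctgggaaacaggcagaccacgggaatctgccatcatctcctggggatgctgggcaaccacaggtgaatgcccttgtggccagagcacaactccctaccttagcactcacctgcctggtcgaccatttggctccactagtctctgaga
The match in the Fgf21 promoter lay on the opposite strand, at positions -139 to -132 from the start, where -1 is the last base before it. Windows of 300 bases, 250 before and 50 after the start, held this core in 3.97% of 32851 mouse promoters. Fgf21 also held the CRE core TGACG, on the opposite strand at -68 to -64, a motif found in 20.8% of the promoters. RefSeq gives Gdf15 a further start, whose window held the CCAAT box on the opposite strand at -6 to -2 (37.4% of promoters). Neither Gdf15 window nor the Adm2 window held the CARE core, and none of the 4 windows held a single arm of the p53 consensus motif, which 8.36% of promoters hold. A match describes the letters of these windows and does not show that a factor binds there.

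Total counts per library ranged from 14272174 to 29639719. Markers of lens fibres, of which 9 of 10 had counts, summed to 55760 to 183600 CPM at 2 days and to 334800 to 456500 at 14 days. CPM stands for counts scaled to a library total of 1000000, after adjustment by the trimmed mean of M values (TMM). A level of 3 counts in a library was taken as the floor that a count of 0 allows, which was 0.0713 to 0.129 CPM in the *Cryaa* libraries and 0.158 to 0.316 CPM in the *Cryab* libraries. Intervals and floors cover counting error only. A gene count carries no allele, so these counts do not check the genotype labels.

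One library of the 14-day WT lenses, replicate 1, stood apart from the other 8 libraries of its line. The immediate-early genes Fos, Fosb and Egr1, named after their values were seen, were far above the highest of those 8. Fos was at 823 CPM against at most 1.72, Fosb at 92.0 against at most 0.158 and Egr1 at 275 against at most 1.75. Atf3, a stress-induced transcription factor, was at 130 CPM against at most 0.684, and Chac1, which degrades glutathione, at 7.49 against at most 1.31. Photoreceptor markers, all 8 with counts, summed to 784 CPM in this library and to 21.7 and 83.6 in the other WT libraries, but they also reached 97.2 to 617 in the het and 206 to 1195 in the homo libraries. The calls of named genes against this WT group are therefore given with and without replicate 1.

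Gdf15 was far more abundant in *Cryaa*-R49C-homo lenses than in any other group. It had 429, 272 and 280 counts in the 3 homo libraries, which is 10.2, 8.67 and 10.7 CPM. WT lenses of that line had 5, 10 and 9 counts (0.214, 0.343 and 0.318 CPM), and het lenses had 3, 4 and 4 counts (0.0838, 0.129 and 0.103 CPM). The homo libraries did not overlap with either group. The mean was 9.86 ± 1.06 CPM (SD, n = 3) in homo, 0.292 ± 0.0680 in WT and 0.105 ± 0.0228 in het. These means differ 33.8-fold between homo and WT and 93.7-fold between homo and het. With counts summed over each group, the ratio to WT was 33.2 with a 95% interval of 22.2 to 52.0, and the ratio to het was 94.7 with an interval of 52.7 to 190.3. Without TMM scaling, by library total alone, the fold over WT was 43.1.

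**Figure D1:**
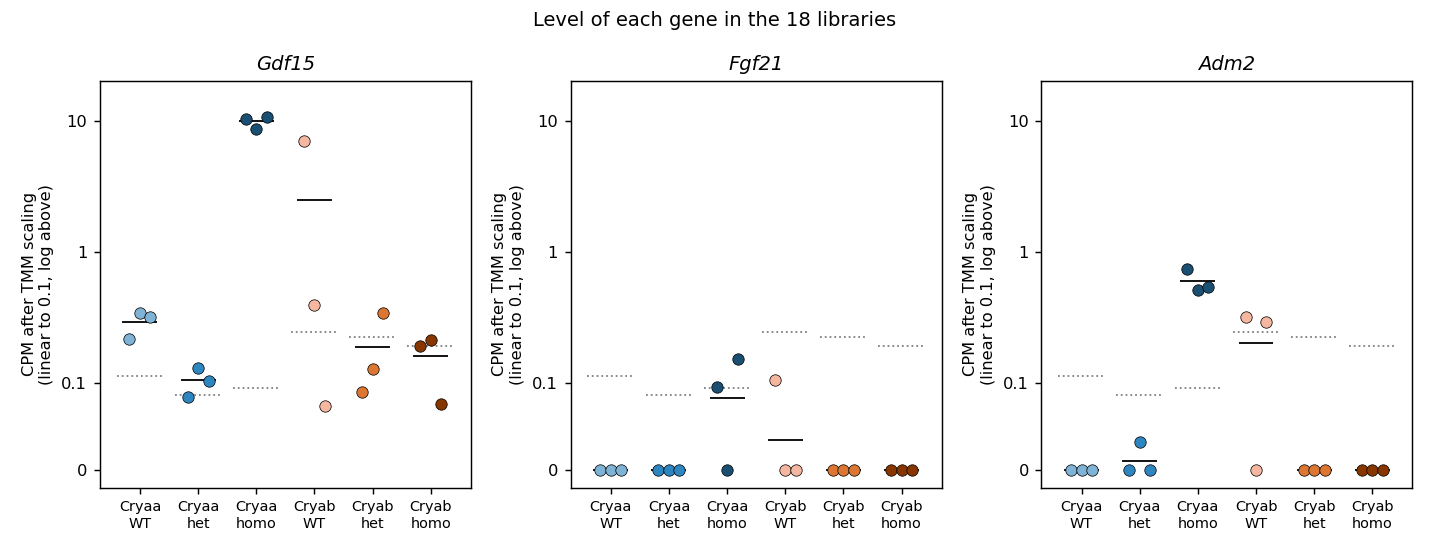
Level of Gdf15, Fgf21 and Adm2 in each of the 18 libraries, in CPM on an axis that is linear up to 0.1 and logarithmic above. Points are libraries in the order of their replicate numbers, solid lines are group means of 3 libraries and dotted lines are the mean level of 3 counts in a library of that group. Gdf15 reached 8.67 to 10.7 CPM in *Cryaa*-R49C-homo and 6.96 CPM in 1 WT library of the *Cryab* line, and Adm2 reached 0.510 to 0.737 CPM in *Cryaa*-R49C-homo.

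Adm2 followed the same pattern at a lower level. It had 31, 16 and 14 counts in the *Cryaa*-R49C-homo libraries (0.737, 0.510 and 0.535 CPM) and 0 counts in all 3 WT libraries of the line. In het lenses a single read was counted, in replicate 2. The homo mean of 0.594 ± 0.124 CPM (SD, n = 3) was at least 5.28-fold higher than WT, taking WT at the floor of 3 counts in each library. Summed counts of 61 against 0 gave a lower 95% bound of 13.0-fold. Against het, 61 counts to 1 gave a ratio of 64.8 with an interval of 11.2 to 2599.

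Fgf21 was close to undetected. It had 4, 0 and 4 counts in the 3 *Cryaa*-R49C-homo libraries (0.0951, 0 and 0.153 CPM), 1 count in WT replicate 1 of the *Cryab* line and 0 counts in the other 14 libraries. Its homo mean of 0.0827 ± 0.0772 CPM was 0.735 times the level that 3 counts in each WT library would give, so no fold is given. Counts above 0 occurred in 2 of 3 homo libraries and in none of the 6 WT and het libraries of that line. Summed counts of 8 against 0 gave a lower 95% bound of 1.39-fold over WT and 1.81-fold over het, for counting error only, and 1 homo library was itself at 0.

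Per kilobase of exon, which allows levels of different genes to be compared, Gdf15 was the most abundant of the 3 in *Cryaa*-R49C-homo at 5.32 ± 0.571 CPM per kilobase. Adm2 was at 0.458 ± 0.0958 and Fgf21 at 0.0869 ± 0.0812. Other values differed among the *Cryaa*-R49C-homo libraries. Lens fibre markers summed to 137700, 62870 and 55760 CPM in replicates 1, 2 and 3, against 106200 to 163200 CPM in WT, and the non-coding gene Gm42418 took 2.53%, 24.5% and 42.6% of all counts, against 20% to 30.1% in WT. Their part in the levels of Gdf15 and Adm2 was not tested. Without Gm42418 in the totals, the homo mean of Gdf15 was 32.9 times that of WT. Among the homo libraries, replicate 3 was the highest for Gdf15 and replicate 1 for Adm2, so the small spread within the group did not follow one order. Groups whose libraries did not overlap, with homo above WT, made up 12.0% of the 17359 genes with at least 10 counts over these libraries, and an adjusted p of at most 0.05 was reached by 5.64% of 26547 genes in this comparison. The members were chosen on this contrast, so nothing is read from their place among those genes.

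In *Cryaa*-R49C-het lenses no member passed the test against WT. Gdf15 was lower in all 3 het libraries than in any WT library (0.0838 to 0.129 against 0.214 to 0.343 CPM), which is 0.361 times the WT mean. The log2 fold change was -1.45, with an adjusted p of 0.880 and an unadjusted p of 0.00876 (edgeR quasi-likelihood test, n = 3 against 3). In this fit of all genes with counts, the spread of the median gene was taken wholly from the estimate shared between genes. With an expression filter, under which each gene's own spread between libraries also enters, the unadjusted edgeR p was 0.246 and the adjusted p 0.840, and the unadjusted p of DESeq2 was 0.192. Gdf15 passed this filter through its counts in *Cryaa*-R49C-homo. Standard errors of fold changes given here come from the filtered fit, and p-values from the fit of all genes unless the filter is named. Among 17395 genes with at least 10 counts over these libraries, 10.1% had every het library below every WT library, and 0.064% of all tested genes passed the adjusted threshold. Adm2 and Fgf21 were at or under the floor in both groups.

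In the *Cryab*-R120G line Gdf15 was low in every mutant library. Its counts were 1, 2 and 5 in het (0.0891, 0.128 and 0.343 CPM) and 3, 4 and 1 in homo (0.192, 0.211 and 0.0759 CPM). WT had 66, 6 and 1 counts, or 6.96, 0.390 and 0.0730 CPM, so WT replicate 1 was high and WT replicate 3 was lower than any het library and any homo library. The group means were 2.47 ± 3.89 CPM in WT, 0.187 ± 0.137 in het and 0.159 ± 0.0729 in homo (SD, n = 3). With replicate 1 left out, the WT mean was 0.231 CPM (n = 2), and the 3 groups overlapped.

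The test of Gdf15 in this line rested on that library. Against WT the log2 fold change was -3.53 in het (adjusted p = 1.01e-08) and -3.74 in homo (adjusted p = 5.08e-10). In these comparisons 0.527% and 1.14% of the 26547 genes passed. Without WT replicate 1 the values were -0.30 and -0.51, and both adjusted p-values were 1. With all libraries and only the 13938 genes kept by the expression filter, the values were -3.57 ± 1.15 (SE, adjusted p = 0.996) and -3.76 ± 1.15 (adjusted p = 0.604). Under that filter 0.00717% and 0.0502% of genes passed. Homo and het differed by a log2 fold change of -0.21 (adjusted p = 1), in a comparison where 0.0565% of genes passed.

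**Figure D2:**
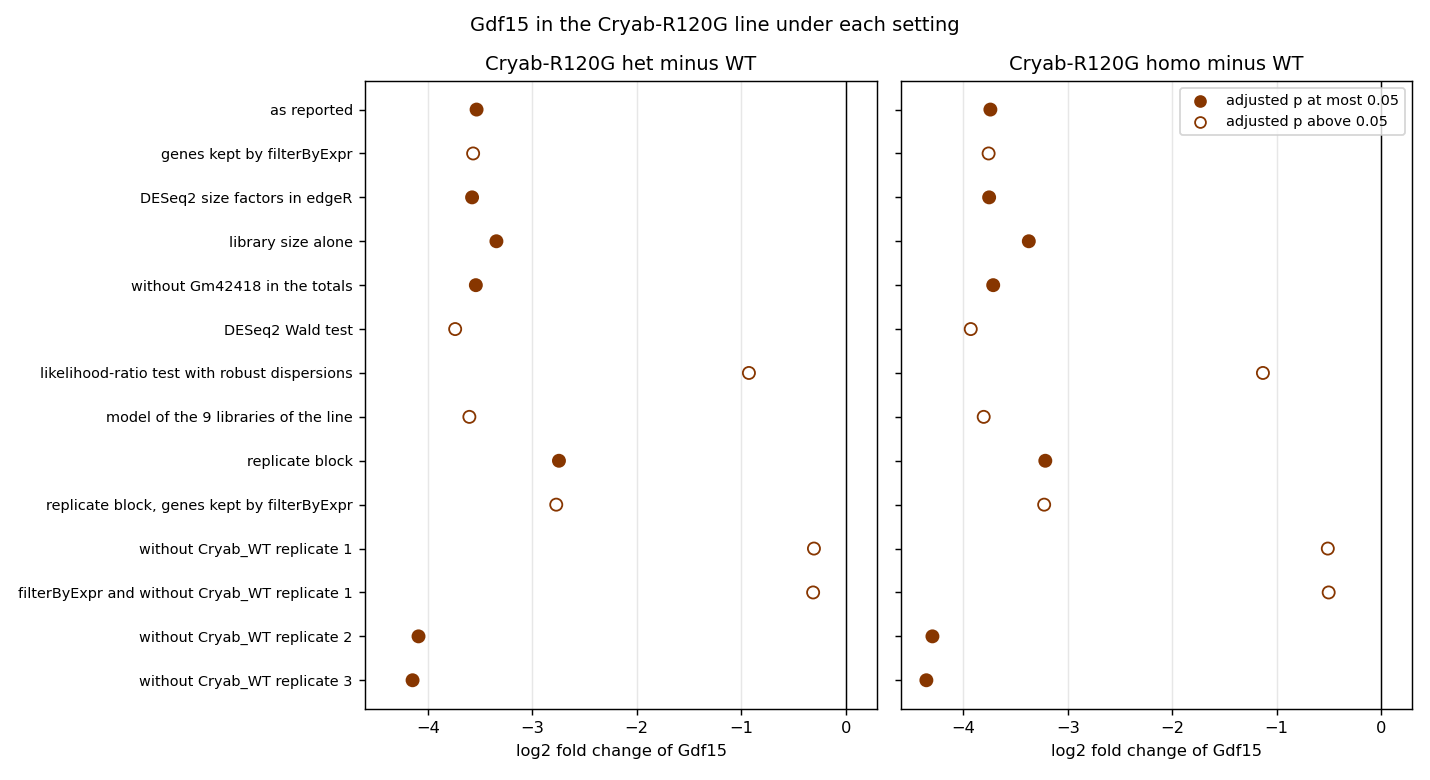
Log2 fold change of Gdf15 in het lenses (left) and homo lenses (right) of the *Cryab*-R120G line against WT of the same line under each setting of the test and without each WT library. Filled points have an adjusted p of at most 0.05. The value lies between -0.30 and -0.51 in both comparisons when WT replicate 1 is left out.

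Adm2 had 3, 0 and 4 counts in the WT libraries of the *Cryab* line and 0 counts in all 6 het and homo libraries. The WT mean of 0.203 ± 0.176 CPM was 0.914 times the level of 3 counts in each het library and 1.05 times that in homo. The adjusted p was 0.586 for het and 0.253 for homo, and without WT replicate 1 it was 0.754 and 0.448. Summed counts of 7 against 0 gave lower 95% bounds of 1.55-fold for WT over het and 1.79-fold for WT over homo, for counting error only. One WT library was at 0 as well, and the difference did not pass the test over libraries.

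Between the WT groups, which differ in both line and age, Gdf15 was higher at 14 days by a log2 fold change of 2.93 (adjusted p = 1.85e-09). Here 12.7% of genes passed the test. Without WT replicate 1 of the *Cryab* line the direction turned, at -0.30 (adjusted p = 0.887). Adm2 had 7 counts in the 14-day WT libraries and 0 in the 2-day ones, with an adjusted p of 0.0122 (0.0474 without WT replicate 1 of the *Cryab* line), and the 14-day mean was at least 1.80-fold higher than the floor. That call was lost without replicate 3 of the 14-day WT (adjusted p = 0.0886) or without replicate 2 or 3 of the 2-day WT (adjusted p = 0.05002 and 0.0588). It was also lost in an edgeR fit with the replicate number as a block (adjusted p = 0.0908). By library total alone the 14-day mean of Adm2 was 0.618 times the floor.

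Ordered by group mean, Gdf15 ran from *Cryaa*-R49C-homo through WT of the *Cryab* line, WT of the *Cryaa* line, *Cryab*-R120G-het and *Cryab*-R120G-homo to *Cryaa*-R49C-het. Neighbouring groups below the first had overlapping libraries. Without WT replicate 1, WT of the *Cryab* line had a mean of 0.231 CPM, below the 0.292 CPM of WT of the *Cryaa* line. Adm2 was ordered *Cryaa*-R49C-homo, WT of the *Cryab* line and *Cryaa*-R49C-het, and it had no counts in the other 3 groups.

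The receptor of Gdf15 was close to undetected in these lenses. Gfral had 2 counts over all 18 libraries, each in a separate library. Ret was detected in every library, at 0.455 to 1.45 CPM, and its log2 fold change in *Cryaa*-R49C-homo was 0.61 (adjusted p = 0.623). For Fgf21, the co-receptor Klb had 12 counts in 7 libraries and at most 3 in any of them. Kl, the co-receptor of the related hormone Fgf23, had 4 counts in all.

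The Fgf receptors other than Fgfr4 were expressed. Per kilobase of exon and averaged over all libraries, Fgfr3 was at 5.03 CPM, Fgfr1 at 1.21 and Fgfr2 at 0.970, while Fgfr4 had 14 counts in 6 libraries. Fgfr3 fell in *Cryaa*-R49C-homo, from 36.1 to 55.8 CPM in the WT libraries to 11.3 to 25.9 CPM. Its log2 fold change was -1.25 ± 0.30 (SE, adjusted p = 7.75e-05, and 0.00825 under the filter). The het libraries, at a mean of 24.8 ± 7.42 CPM, were not called against WT.

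For Adm2, Calcrl was at 0.677 ± 0.0981 CPM in 2-day WT and 1.05 ± 0.608 CPM in *Cryaa*-R49C-homo (SD, n = 3), and it was not called. Ramp2 was at 2.00, 6.76 and 7.68 CPM in the 3 homo libraries and at 1.64 to 2.62 CPM in WT, with a log2 fold change of 1.34 and an adjusted p of 0.00482 that became 0.0623 under the expression filter. Vessel and mesenchyme markers, all 7 with counts, summed to 21.6, 63.0 and 56.3 CPM in the same 3 libraries and to 21.7 to 42.7 CPM in WT. Macrophage markers, all 8 with counts, summed to 20.4 to 36.0 CPM in homo and 7.54 to 17.9 CPM in WT. Their part in the level of Ramp2 or of the 3 hormones was not tested. In bulk RNA more cells of a type cannot be told apart from more RNA per cell.

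Ramp1 had 56 counts over 15 libraries and was not called in any comparison. Ramp3 was at 0 to 0.105 CPM in WT of the *Cryab* line and at 0.303 to 0.958 CPM in *Cryab*-R120G-homo, with an adjusted p of 0.0186 that became 0.395 under the filter and 0.00450 without WT replicate 1, where the remaining WT libraries had 0 counts. The homo libraries had 0.958, 0.369 and 0.303 CPM in replicates 1, 2 and 3. Erythrocyte markers summed to 47.97, 170.7 and 110.6 CPM in the same replicates, and inner retina markers to 159.1, 134.2 and 170.6. Vessel and mesenchyme markers summed to 15.78, 12.8 and 13.81 CPM, so these sets did not run in that order. The sums of pigment, macrophage and photoreceptor markers ran in the same order as Ramp3 over these libraries. Pigment epithelium and melanocyte markers, all 9 with counts, summed to 35.3, 33.9 and 21.2 CPM in them and to 7.17 to 8.98 in WT. Macrophage markers summed to 6.71, 3.16 and 2.12 CPM, against 0.974 to 2.32 in WT, and photoreceptor markers to 1195, 598.5 and 206.1, against 21.7 to 784 in WT. Of the pigment, macrophage and photoreceptor sums, only that of the pigment markers did not overlap between the groups. The part of these cell types in the level of Ramp3 was not tested. At 14 days Calcrl, Ramp2 and Ramp3 were lower in WT than at 2 days, with log2 fold changes of -2.66, -3.14 and -3.74 and adjusted p-values of 0.0117, 2.93e-08 and 0.00759. Without WT replicate 1 of the *Cryab* line the adjusted p-values were 0.0268, 9.32e-08 and 0.00298, and with the filter added Calcrl lost its call (0.0650). Vessel and mesenchyme markers summed to 21.7 to 42.7 CPM in 2-day WT and 12.7 to 15.1 in 14-day WT, and macrophage markers to 7.54 to 17.9 and 0.974 to 2.32. The endothelial genes Cdh5 and Kdr were at 3.00 to 3.18 and 7.40 to 15.9 CPM at 2 days and at 0.219 to 0.422 and 0 to 2.42 CPM at 14 days. Col1a1 and Col3a1 of the same markers were also lower at 14 days without overlap. The endothelial gene Pecam1 overlapped, at 1.85 to 3.04 CPM at 2 days and 0.219 to 4.85 CPM at 14 days. Pdgfrb (1.95 to 3.36 and 1.90 to 5.62 CPM) and Col1a2 (5.1 to 8.2 and 5.2 to 5.8 CPM) overlapped as well. The part of these cells in the levels of Calcrl, Ramp2 and Ramp3 was not tested. Of the 12 receptor genes, 1 was higher and 1 lower in *Cryaa*-R49C-homo, where 2.83% of all genes were higher and 2.81% lower.

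**Figure D3:**
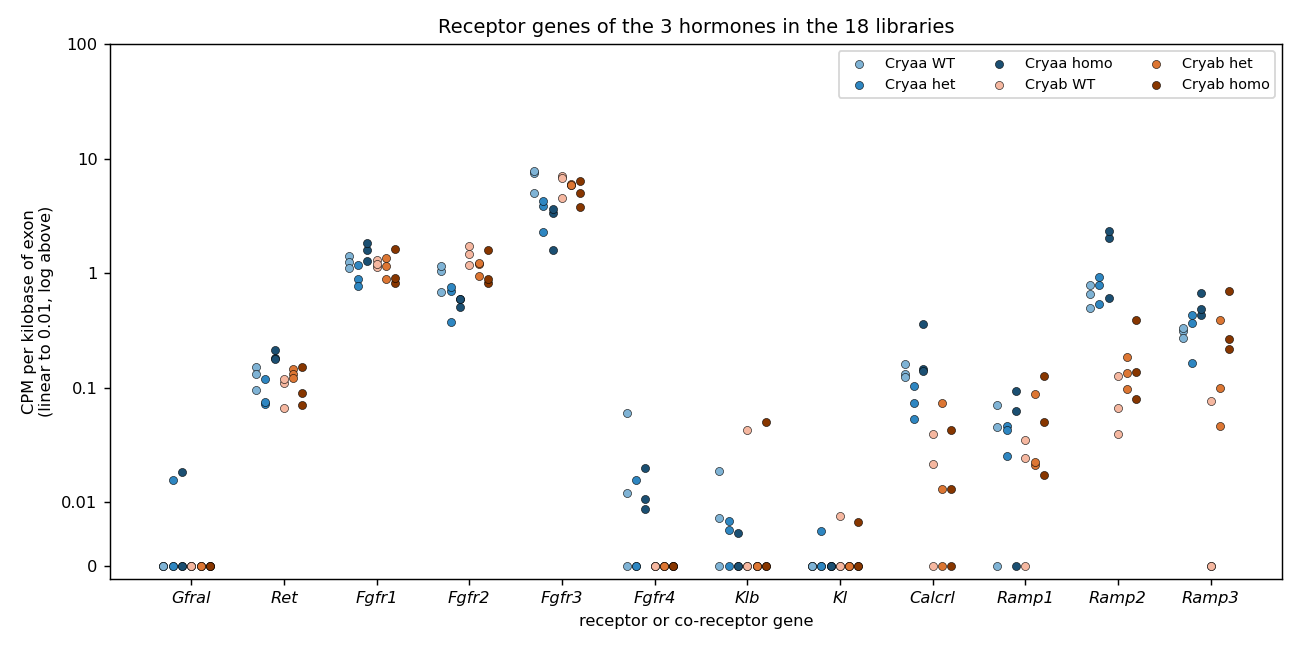
Level of 12 receptor and co-receptor genes in CPM per kilobase of exon, on an axis that is linear up to 0.01 and logarithmic above. Each point is a library, coloured by its group. Gfral, Klb, Kl and Fgfr4 lie at or near 0, and Fgfr3 is the highest of these genes, with lower values in *Cryaa*-R49C-homo than in 2-day WT.

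Few related ligands were called in *Cryaa*-R49C-homo. The list held 30 genes of the growth and differentiation factor, activin, TGF-β, BMP, Fgf and calcitonin families. It included Fgf1 and Fgf2 beside endocrine Fgf genes, and the calcitonin receptor gene Calcr. Of these 30, 26 had counts, 0 were higher and 2 were lower in *Cryaa*-R49C-homo than in WT, where 2.83% of all genes were higher and 2.81% lower. The lower ones were Fgf15, an endocrine Fgf (log2 fold change -1.31, adjusted p = 2.61e-04), and Bmp4 (-1.17, adjusted p = 0.00320). Neither passed under the expression filter (adjusted p = 0.269 and 0.445). Adm, the closest relative of Adm2, was at 0.109 CPM in WT and 0.0933 CPM in homo. The list had a median log2 fold change of -0.21, beside 0 for all genes. At an unadjusted edgeR p under 0.05, 1 of its genes was higher and 2 were lower, beside 4083 of all 26547 genes in either direction.

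Among 26 other secreted stress proteins with counts, 3 were higher and 1 was lower in *Cryaa*-R49C-homo, against 2.83% and 2.81% of all genes, and the list median log2 fold change was 0.53 beside 0. Stc2, a glycoprotein hormone induced by endoplasmic reticulum stress, was at 2.28, 2.14 and 2.18 CPM in homo and at 0.106 to 0.343 CPM in WT (log2 fold change 3.41 ± 0.59, adjusted p = 4.95e-07, and 5.61e-04 under the filter). Vegfa, an angiogenic factor, was higher by 0.94 (adjusted p = 0.0268) and Cdnf, a neurotrophic factor of the endoplasmic reticulum, by 1.66 (adjusted p = 0.0447). Under the filter both lost the call, with adjusted p-values of 0.199 and 0.0629. Ctgf, a matricellular protein, was lower by a log2 fold change of -1.49 (adjusted p = 0.00110, and 0.0364 under the filter).

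Several regulators of the 3 genes were higher in *Cryaa*-R49C-homo. Of 19 regulators of the integrated stress response, 8 were higher and 1 lower, beside 2.83% and 2.81% of all genes, with a list median log2 fold change of 0.59 beside 0 for all genes. Under the filter 6 were higher and 1 lower. Ddit3, which encodes CHOP, rose from 3.35 to 3.97 CPM in WT to 179.5, 110.2 and 110.7 CPM in homo (log2 fold change 5.21 ± 0.31, adjusted p = 1.58e-61, and 1.99e-10 under the filter). Trib3, a pseudokinase induced by CHOP, rose from at most 0.141 CPM to 92.8, 43.0 and 32.5 CPM (adjusted p = 2.76e-100, and 3.17e-08 under the filter). Atf4 itself was at 91.7, 96.5 and 93.1 CPM against 22.8 to 30.4 CPM in WT (log2 fold change 1.79 ± 0.21, adjusted p = 1.31e-09, and 6.12e-06 under the filter). Atf3 was higher by 5.54 (adjusted p = 3.79e-45), which became 0.0988 under the filter, and Cebpb, a partner of CHOP, by 3.79 (adjusted p = 8.34e-05), which became 0.0529.

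Of 30 other targets of ATF4 and CHOP, 15 were higher and 1 was lower, where 2.83% of all genes were higher and 2.81% lower. Their median log2 fold change was 0.80, beside 0 for all genes. Chac1 was at 143.7, 54.8 and 45.6 CPM in homo and at most 0.274 CPM in WT (log2 fold change 8.48 ± 0.86, adjusted p = 1.96e-102, and 1.98e-05 under the filter). Cth, of cysteine synthesis, was higher by 3.39, Sesn2, a stress-induced inhibitor of mTORC1, by 3.22, and Bbc3, the death protein Puma, by 3.04. The adjusted p-values were 1.25e-10, 2.84e-21 and 5.46e-08, and 1.72e-04, 1.03e-06 and 2.45e-04 under the filter. Homo replicate 1 was the highest of the 3 for Ddit3, Trib3, Chac1 and Adm2. It was not the highest for Gdf15.

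Of 26 p53 targets, 12 were higher and 1 was lower, beside the same 2.83% and 2.81% of all genes, and 11 and 1 under the filter. The list had a median log2 fold change of 0.92, beside 0 for all genes, and shares Sesn2, Bbc3 and Tnfrsf10b with the ATF4 and CHOP targets. Eda2r, a death-domain receptor, was at 1.43 to 4.46 CPM in homo and at most 0.171 CPM in WT (adjusted p = 1.89e-13, and 2.89e-04 under the filter). Phlda3, an inhibitor of Akt, was at 15.4 to 19.6 against 0.548 to 1.20 CPM (adjusted p = 4.09e-33, and 1.19e-07), and Cdkn1a, the cell cycle inhibitor p21, at 26.4 to 38.1 against 1.27 to 2.40 CPM (adjusted p = 5.36e-37, and 6.63e-04). Trp53 was at 25.7, 9.63 and 11.6 CPM in homo and 12.4 to 17.03 CPM in WT, so the groups overlapped. Of 13 PPARα targets with counts, 0 were higher and 1 was lower, beside 2.83% and 2.81% of all genes. At an unadjusted edgeR p under 0.05, 1 was higher and 2 were lower, beside 4083 of all 26547 genes in either direction. The called gene was Cpt1a, the entry enzyme of mitochondrial fatty acid oxidation (log2 fold change -1.31 ± 0.25, adjusted p = 3.70e-05, and 0.00102 under the filter).

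**Figure D4:**
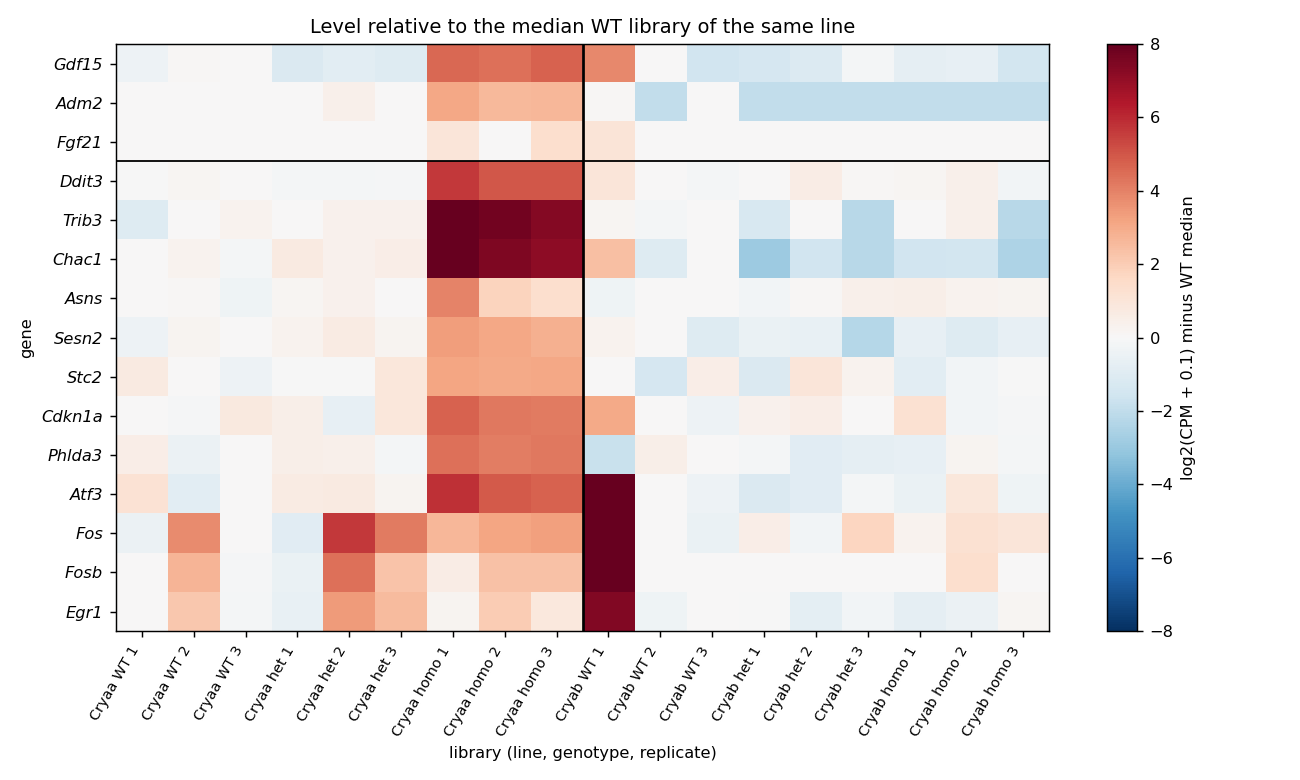
Colour map of the 3 hormones, genes of the stress and p53 lists and immediate-early genes in the 18 libraries. Values are log2(CPM + 0.1) minus the median of the 3 WT libraries of the same line. Red is higher and blue lower, and the colour scale ends at 8. Gdf15, Adm2, Ddit3, Trib3 and Chac1 are high in all 3 *Cryaa*-R49C-homo libraries, whereas WT replicate 1 of the *Cryab* line is high for Gdf15, Chac1, Cdkn1a, Atf3, Fos, Fosb and Egr1 and not for Trib3 or Asns.

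WT replicate 1 of the *Cryab* line had high Gdf15 with some of the genes that rose in *Cryaa*-R49C-homo and without others. It was above the highest of the other 8 *Cryab* libraries for Gdf15 (17.9 times), Atf3 (189.6 times), Chac1 (5.70 times) and Cdkn1a (3.77 times). Ddit3 was 1.33 times that highest library, at 8.65 CPM, and Atf4 1.25 times. Trib3, at 0.422 CPM, Asns, at 11.1 CPM, and Phlda3, at 0.422 CPM, were not above it. Adm2 had 3 counts and Fgf21 1 count in this library.

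Apart from Ramp3, the list genes called in the mutants of the *Cryab* line were high in WT replicate 1. Atf3, Cebpb, Chac1, Btg2, a p53-induced antiproliferative gene, and the secreted Hbegf, Cyr61 and Cxcl10 were lower than WT in both het and homo. Their log2 fold changes in homo were -6.77, -2.99, -3.12, -1.43, -2.37, -4.42 and -8.68. Without WT replicate 1, no more than Chac1 of these 7 kept an adjusted p of at most 0.05, in het (log2 fold change -1.95, adjusted p = 0.0259) and not in homo (-1.49, adjusted p = 0.0981). Slc6a9, a glycine transporter, and Bmp2 then passed as higher in homo, by 3.48 and 3.34 (adjusted p = 5.41e-04 and 0.0216), and with the expression filter added neither passed (adjusted p = 0.215 and 0.152) and Chac1 in het lost its call (0.687). Leaving this library out for the lists was chosen after seeing the data. Cxcl10 had counts in WT replicate 1 only among the WT and homo libraries, at 6.96 CPM, so that its fitted value is no bound. Under the filter 0 genes of these lists passed edgeR in either comparison. At an unadjusted edgeR p under 0.05, 2 were higher and 10 lower in het, and 3 and 15 in homo. Among all 13938 genes of that fit, 532 in het and 850 in homo were under 0.05. In *Cryaa*-R49C-het, Cyr61 was the only gene of the lists to pass (log2 fold change 1.92, adjusted p of 0.836 under the filter).

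The genes whose pattern over the 18 libraries was most like each hormone were ranked by Pearson r of log2 CPM, over 13937 genes for Gdf15. The libraries fall into separate groups, so r is given as a description. For Gdf15 the highest were Sqstm1, the autophagy receptor p62 (0.926), Chac1 (0.926), Eda2r (0.923), the p53-induced non-coding RNA Trp53cor1 (0.905) and Lmna, the lamin A gene (0.904). For Adm2 they were Chac1 (0.948), Nfil3, a transcriptional repressor (0.899), Gpt2, an alanine aminotransferase (0.885), Lmna (0.884) and the small RNA Rny1 (0.878). For Fgf21, with 9 counts in all, they were Lmna (0.832), Gdf15 (0.812), Atf3 (0.809), Plk3 (0.808) and Fev (0.776). Over the 9 *Cryaa* libraries Gdf15 and Adm2 had r = 0.973 with each other.

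These rankings changed with the libraries and the measure used. By Spearman rho over the same 18 libraries, 1 of the 5 genes for Gdf15, 1 for Adm2 and 0 for Fgf21 were found again. Without WT replicate 1 of the *Cryab* line, 1 of the 5 genes for Gdf15, 2 of the 5 for Adm2 and 0 of the 5 for Fgf21 were found again. Within the 9 *Cryaa* libraries, the 5 nearest to Gdf15 held none of the first 5 and were led by the endoplasmic reticulum chaperone gene Dnajb9 (0.994) and Ddit3 (0.988).

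The genes next to each hormone gene were not called in *Cryaa*-R49C-homo against WT. Gdf15 has Lrrc25 at 7910 bases, with 1, 1 and 1 counts in WT and 1, 16 and 11 in homo (0.0375 ± 0.00471 and 0.318 ± 0.259 CPM, adjusted p = 0.102), and Pgpep1 at 13979 bases (6.93 ± 0.389 CPM in WT and 9.54 ± 3.17 CPM in homo, adjusted p = 0.428). Adm2 has Sbf1 at 7409 bases (adjusted p = 0.753) and Miox at 9667 bases (adjusted p = 0.689). Fut1, at 1799 bases from Fgf21, had 5, 0 and 1 counts in the homo libraries and 0 in the other 15 (adjusted p = 0.366). The non-coding gene Gm31479 on the other side of Fgf21 was not analysed here.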

How the data were processed

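RNA of pooled lenses was made into libraries with a poly-A kit and sequenced as single 50-base reads. The authors deposited raw counts per Ensembl gene, which the submitters' notes and the study's methods trace to STAR 2.0.4b alignment to GRCm38 and featureCounts 1.4.5 of uniquely aligned reads; the strand setting is not given in the sources used here. Deposited CPM, RPKM and log2 tables were not used, nor were the authors' fold changes and p-values. Groups follow the sample titles, because in 6 *Cryab* libraries the listed genotype is that of the *Cryaa* line. The libraries of a group are separate pools of lenses, which the study calls biological replicates, so p-values concern these pools.

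The 26547 genes with at least 1 count were fitted over 18 libraries and 6 groups with edgeR 4.0.16 (TMM, robust quasi-likelihood test, Benjamini-Hochberg adjustment, threshold 0.05). The median prior degrees of freedom were infinite, so p-values of this fit rest on a spread shared between genes more than on each gene's own spread between pools. Standard errors come from the fit of the 13938 genes kept by filterByExpr (median prior degrees of freedom 10.25), which keeps 2 of the 3 members, Gdf15 and Adm2. Both passed it through the *Cryaa*-R49C-homo libraries, for whose level they were chosen. In the other groups Adm2 had at most 4 counts in a library. Gdf15 had at most 10 there, apart from 66 in WT replicate 1 of the *Cryab* line. Filtered values of the 2 members in other comparisons are for genes kept in this way. Library totals and the factors from TMM, 0.496 to 2.10, set the precision. Alternatives were DESeq2 1.42.0, other scalings, likelihood-ratio and single-line fits, a replicate block and leaving out libraries. In *Cryab*-R120G-homo against WT the deviations of same-numbered libraries correlated in every pair (r = 0.278, 0.176 and 0.159), a hint from the data. It was not particular to that comparison. The values were 0.35, 0.00845 and 0.133 in *Cryab*-R120G-het against WT and 0.045, 0.161 and 0.155 in *Cryaa*-R49C-homo against WT. In *Cryaa*-R49C-het against WT they were -0.0461, 0.331 and 0.481. The members, gene lists and tests were chosen with earlier results of these data known. Named genes were the members, every receptor gene, Cryaa, Cryab, Atf4, Ddit3, Trib3, Chac1, Trp53 and Gm42418, at most 4 genes of largest change past the threshold per other list in *Cryaa*-R49C-homo against WT, any called gene where at most 3 of a list were called, the 5 genes most like each member and the nearest genes. Protein sequences of the members were not used here.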

Additional observations from a re-analysis of the deposited data

Results flagged for a closer look

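Gdf15 and Adm2 are listed here because every homozygous library of 1 line lay on the other side of its WT mean from every homozygous library of the other line. Gdf15 was above the WT mean of its line in all 3 *Cryaa*-R49C-homo libraries, with a difference of means of 9.57 CPM, and below it in all 3 *Cryab*-R120G-homo libraries, with a difference of -2.31 CPM. The same held for Adm2, with differences of 0.594 CPM and -0.203 CPM. The difference between the lines was not tested, and line and age cannot be told apart. For Gdf15 the *Cryab* value rests on WT replicate 1, without which its log2 fold change was -0.51 in place of -3.74 (adjusted p = 1), and WT replicate 3 lay below every homo library. The Adm2 value in the *Cryab* line rests on 7 reads in 2 WT libraries, with the third WT library at 0, and did not pass the test (adjusted p = 0.253). Groups of 3 libraries are too small for the test of single far values.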

How the results depend on the processing

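Gdf15 kept its sign and its side of the threshold in *Cryaa*-R49C-het against WT under all 15 alternatives. In *Cryaa*-R49C-homo against WT it moved only with library size alone (5.44 in place of 5.04). Gdf15 in *Cryab*-R120G-het and homo lost its call with filterByExpr (-3.57, -3.76), DESeq2 (-3.74, -3.93), robust likelihood ratio (-0.93, -1.13), the 9-library model (-3.60, -3.81), and filterByExpr without WT replicate 1 (-0.31, -0.50), an alternative chosen after seeing the data, as was the block with the filter. Leaving out 1 library at a time gave -4.29 to -0.30 for *Cryab*-R120G-het and -4.36 to -0.51 for homo against WT, -0.48 to 0.55 for homo against het (reversed without het replicate 3, at 0.55, or homo replicate 3, at 0.07) and -0.30 to 3.54 between the WT groups. Leaving out 1 library at a time, the adjusted p of Adm2 between the WT groups ranged from 0.00454 to 0.0886 (0.05002 without replicate 2 and 0.0588 without replicate 3 of the 2-day WT). The replicate block kept the calls (-2.75, -3.22), and with the filter they were lost (-2.77, -3.23). For Adm2 between the WT groups the adjusted p with the block was 0.0908, with block and filter 0.0948 and with the filter without WT replicate 1 0.0656. Gdf15 between the WT groups was 0.32 by the likelihood ratio and -0.26 with the filter without replicate 1. The Adm2 bound in *Cryaa*-R49C-homo was 6.93 with library size alone and 13.0 with summed counts. Library size alone put the all-gene median log2 fold change at 0.25 in place of 0 in *Cryaa*-R49C-homo against WT, with 1670 genes higher and 293 lower in place of 751 and 747, and at -1.52 in place of -0.04 between the WT groups. The number of genes called in *Cryaa*-R49C-homo against WT, in the fit of all genes, was 982 to 3128 when 1 library was left out, in place of 1498. It was highest without homo replicate 1, with 1335 higher and 1793 lower. The causes were not tested. The lower bound of Fgf21 over WT in *Cryaa*-R49C-homo, from summed counts, was 1.34 to 1.89 over the scalings. No fold of means is given for Fgf21, or for Adm2 where both groups were at or under the floor; low counts limit both genes.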
